A study of Rattus norvegicus with 6 samples.

Results

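Ankrd1, Ankrd2 and Ankrd23, which encode the muscle ankyrin repeat proteins, and Abra, which encodes an actin-binding protein of striated muscle, were followed in rat heart after repeated doxorubicin. The 4 genes were taken by symbol from a table of 17487 symbols, and each stood on 1 row. They were selected on the measured levels of Ankrd23 and Abra, which were higher in every doxorubicin heart, so the choice had used the treatment contrast. The values of that contrast are therefore a description of the members and not a test of them. Ankrd1, Ankrd23 and Abra passed the filter on low counts, and Ankrd2 did not.

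Hearts came from adult male Wistar rats, an outbred laboratory strain. The 3 doxorubicin rats received 3.75 mg/kg of the anthracycline drug into the tail vein each week for 4 weeks, and the 3 control rats received saline on the same schedule. Each rat gave 1 library of polyadenylated RNA. The labels do not say which part of the heart was taken, how long after the last injection it was collected, or how the heart was functioning.

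The ankyrin repeat proteins sit on the elastic I-band part of titin, the molecular spring of the sarcomere, together with myopalladin and the protease calpain 3. They are also found in the nucleus, and their transcripts are known to go up when muscle is stretched or overloaded. Ankrd1 is the main cardiac member, Ankrd2 is best known from slow skeletal muscle, and Ankrd23 is found in both heart and skeletal muscle. Abra, also called STARS or Ms1, binds actin in the sarcomere and promotes its polymerization. That frees the coactivators MRTF-A and MRTF-B to enter the nucleus and act with serum response factor (SRF).

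Promoter sequence is shown for 2 of the 4 members, a paralog pair of which one was well detected in these hearts and the other hardly at all. The sequences are from RefSeq on the build GRCr8 and cover 250 bases before to 50 bases after each gene start, 5′ to 3′ on the strand of the gene. Capitals mark matches to the motifs searched. The Ankrd23 window is chr9:46274461-46274760, minus strand, and the Ankrd2 window is chr1:250796169-250796468, plus strand.
Ankrd23: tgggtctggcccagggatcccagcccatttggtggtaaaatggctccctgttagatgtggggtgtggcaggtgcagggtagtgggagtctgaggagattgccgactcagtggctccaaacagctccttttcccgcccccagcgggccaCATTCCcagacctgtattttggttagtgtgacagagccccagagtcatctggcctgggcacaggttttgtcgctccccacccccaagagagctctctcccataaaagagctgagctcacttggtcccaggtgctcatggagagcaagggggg
Ankrd2: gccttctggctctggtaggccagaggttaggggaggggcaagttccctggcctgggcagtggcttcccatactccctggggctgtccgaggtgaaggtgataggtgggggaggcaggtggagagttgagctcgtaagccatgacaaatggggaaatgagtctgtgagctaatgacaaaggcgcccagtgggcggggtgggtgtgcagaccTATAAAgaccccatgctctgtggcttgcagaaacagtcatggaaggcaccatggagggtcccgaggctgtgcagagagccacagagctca

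The motifs searched on both strands were the CArG box bound by SRF, the MEF2 site, the M-CAT core CATTCC bound by TEAD factors, and TATAAA. No match overlapped another. In the Ankrd23 window the M-CAT core stood on the gene strand from 102 to 97 bases before the start, and 13.9% of 27457 promoter windows of that length held it on either strand. In the Ankrd2 window TATAAA stood on the gene strand from 40 to 35 bases before the start, and 14.3% of all windows held it on either strand. Counted on the gene strand only, the shares were 7.07% for the M-CAT core and 9.08% for TATAAA. The CArG box and the MEF2 site, held by 1.64% and 3.37% of all windows, had no match in either window. A match is a stretch of letters only, and no binding was measured.

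The libraries held from 2219685 to 3508282 counts. Levels are given as CPM, counts scaled by trimmed mean of M-values (TMM) to a common total, and 3 counts, taken as the floor of detection, were 0.852 to 1.33 CPM. All 7 cardiomyocyte markers were present, summing to 64768 to 85001 CPM in control and 63603 to 70970 CPM in doxorubicin libraries. Control library 1 stood apart in atrial light chains. Myl7, the atrial regulatory light chain, was at 164 CPM there and at 2.06 to 6.42 CPM in the other 5 libraries. Myl4 was at 68.4 CPM there and at 5.3 to 26.0 CPM in the others. The other atrial markers did not set it apart in this way. Sln was at 22.9 CPM there but at 16.8 CPM in control library 3, and Nppa was highest in doxorubicin library 1. Erythroid markers, a sign of blood in the tissue, were also highest in control library 1, at 7395 CPM against 1994 and 2519 CPM in control libraries 2 and 3. They were at 668 CPM in doxorubicin library 1, where the fitted members were highest, and at 2339 and 2685 CPM in doxorubicin libraries 2 and 3. The part of these markers in the members' values was not tested. Skeletal muscle markers summed to 69.7 to 93.6 CPM in control and 87.4 to 141 CPM in doxorubicin libraries, mostly Casq1, with 3 of 15 passing the filter and Tnnt1 and Tnnt3 at 0 in all libraries. In such bulk tissue, fewer cells of a type and less RNA per cell cannot be told apart.

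Ankrd23 had the largest relative difference of the members. Its level was 51.9, 52.4 and 33.5 CPM in control hearts 1, 2 and 3 and 195, 92.4 and 125 CPM in doxorubicin hearts 1, 2 and 3. The lowest doxorubicin heart was 1.76 times the highest control heart, so the groups did not overlap. The mean over control hearts was 46.0 ± 10.8 CPM and over doxorubicin hearts 137 ± 52.2 CPM (SD, n = 3), and the fitted log2 fold change was 1.59 (SE 0.27). Ordered by log2 fold change, Ankrd23 was number 27 of the 9205 symbols fitted. The values rest on 118 to 136 counts per control library and 296 to 606 counts per doxorubicin library.

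Abra followed with a smaller difference and a similar spread. Its level was 36.3, 27.5 and 46.6 CPM in control hearts 1, 2 and 3 and 124, 67.1 and 91.4 CPM in doxorubicin hearts 1, 2 and 3. All doxorubicin hearts lay above all control hearts, and the lowest was 1.44 times the highest control. The means were 36.8 ± 9.53 and 94.1 ± 28.5 CPM (SD, n = 3), and the fitted log2 difference was 1.34 (SE 0.26), number 53 in the same order. Control library 2, the shallowest, held only 62 Abra counts, for a Wilson 95% interval of 21.5 to 35.3 CPM that covers counting error only.

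Ankrd1 differed less and its groups overlapped. It stood at 2524, 3687 and 2529 CPM in control hearts 1, 2 and 3 and at 8204, 3092 and 4342 CPM in doxorubicin hearts 1, 2 and 3. Doxorubicin heart 2 lay below control heart 2, at 0.839 of its level, while doxorubicin heart 1 was 2.82 times the control mean. The means were 2913 ± 670 and 5213 ± 2665 CPM (SD, n = 3), and the log2 fold change was 0.84 (SE 0.30). Without doxorubicin heart 1 it was 0.36 (SE 0.24). Ankrd1 was among the most counted transcripts of these hearts, from number 42 by counts in control library 1 to number 10 in doxorubicin library 1.

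Ankrd2 was at or near the floor. The control libraries, in order, were listed with 0, 2 and 0 counts, and the doxorubicin libraries with 3, 1 and 5. A count of 0 has a Wilson 95% upper bound of 1.47 CPM in control library 1 and 1.09 CPM in control library 3. Only doxorubicin library 3, at 1.47 CPM (Wilson 95% interval 0.629 to 3.45), was above the floor of its own library, 0.884 CPM. No fold is given, and a difference was not detectable at this depth.

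**Figure D1:**
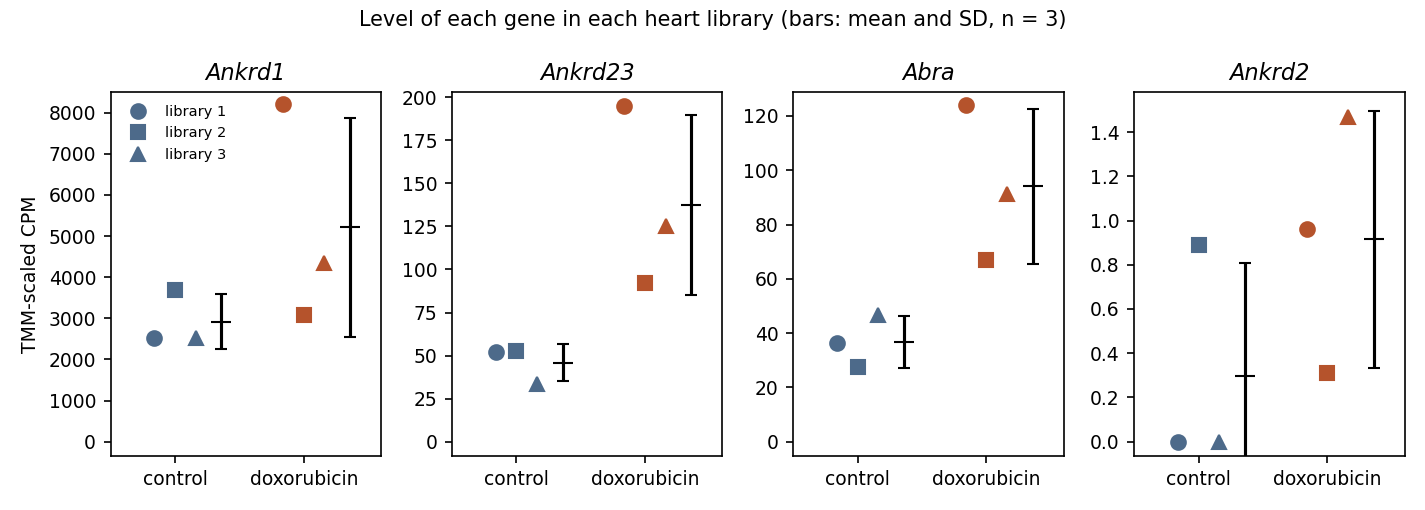
TMM-scaled CPM (y axis) of the 4 members in each control and doxorubicin library, with the mean and SD (n = 3) beside each group; each panel has its own scale. All doxorubicin values of Ankrd23 (92.4 to 195 CPM) and Abra (67.1 to 124 CPM) lie above all control values, those of Ankrd1 overlap, and Ankrd2 stays at or under 1.47 CPM.

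Among all 9205 fitted symbols, doxorubicin values lay wholly above control values for 6.39%, and Ankrd23 and Abra belong to these by the choice of members. In edgeR's quasi-likelihood fit 0.0543% of symbols, 5 in all, had a Benjamini-Hochberg adjusted p under 0.05, and none of the members was among the 5. That depended on the settings: Ankrd23 and Abra were each under the threshold in 4 of 17 alternatives, DESeq2 among them, and Ankrd1 in 0. As this contrast chose the members, nothing is read from these calls. The 3 fitted members shared their order within the doxorubicin group, with heart 1 highest, heart 3 next and heart 2 lowest. That order was found in 14.6% of all fitted symbols and in 24.0% of the 588 symbols above all controls. In control hearts the members did not share an order: heart 2 was highest for Ankrd1 and Ankrd23, barely so for the latter, and lowest for Abra.

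Because Ankrd1, Ankrd23 and Abra are muscle transcripts, they were also set against the summed counts of the 7 cardiomyocyte markers, which are thin and thick filament proteins and phospholamban. Per 10000 marker counts, Ankrd23 had 6.11, 8.09 and 4.69 counts in control hearts 1, 2 and 3 and 27.4, 13.8 and 19.6 in doxorubicin hearts 1, 2 and 3. Abra had 4.27, 4.25 and 6.51 counts in control and 17.5, 10 and 14.4 counts in doxorubicin hearts on the same basis. Ankrd1 had 297, 569 and 354 counts in control and 1156, 461 and 683 counts in doxorubicin hearts. Relative to these markers the groups stood apart for Ankrd23 and Abra, which were chosen as higher in every doxorubicin heart, and overlapped for Ankrd1. The rescaling divides the same member counts by another sum, which ran from 63603 to 85001 CPM over the libraries. It is therefore not a second test of these members. The share of all symbols that stood apart on this basis was not computed. Fitted with this scaling, the log2 fold changes were 1.70 (SE 0.28) for Ankrd23, 1.47 (SE 0.26) for Abra and 0.91 (SE 0.31) for Ankrd1.

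**Figure D2:**
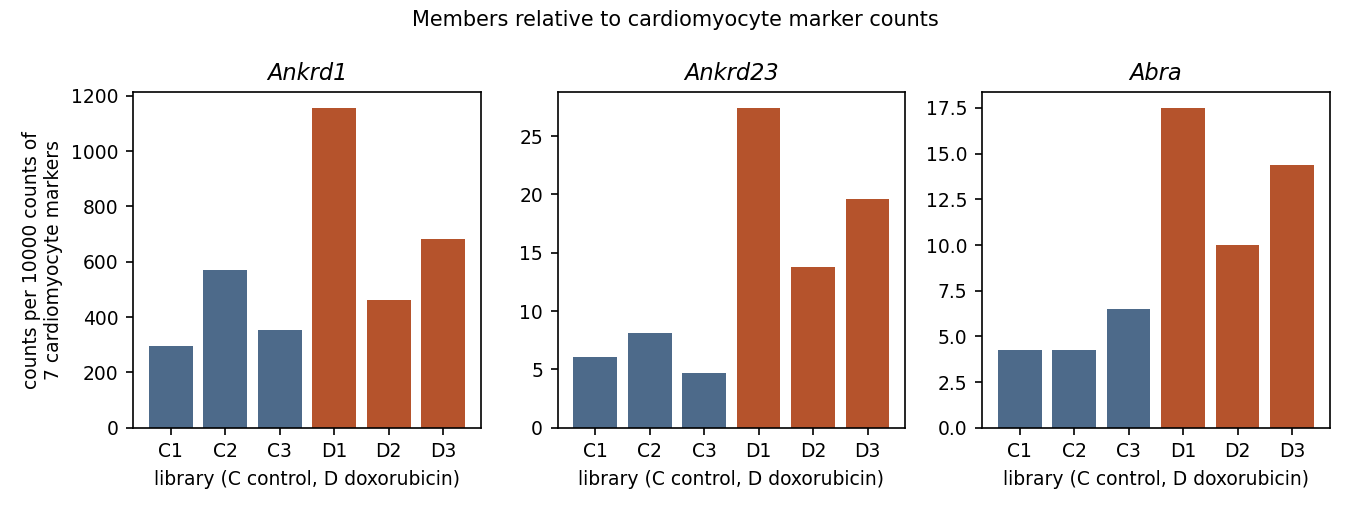
Counts of Ankrd1, Ankrd23 and Abra per 10000 counts of 7 cardiomyocyte markers (y axis, from 0) in each control (C1 to C3) and doxorubicin (D1 to D3) library; each bar is 1 library. Ankrd23 reaches 13.8 to 27.4 in doxorubicin against 4.69 to 8.09 in control, while Ankrd1 in D2 (461) is below C2 (569).

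The balance between members within a library does not depend on scaling. For each 100 Ankrd1 counts there were 2.06, 1.42 and 1.32 Ankrd23 counts in control hearts 1, 2 and 3 and 2.37, 2.99 and 2.87 in doxorubicin hearts 1, 2 and 3. The groups did not overlap in this ratio, with means of 1.6 ± 0.398 and 2.74 ± 0.327 (SD, n = 3), but the gap was narrow, from 2.06 to 2.37. Ankrd23 was chosen as higher in every doxorubicin heart, so this follows in part from the choice. The share of all symbols apart in their ratio to Ankrd1 was not computed. Doxorubicin heart 2, where Ankrd1 was near the control level, had the highest ratio. Abra per 100 Ankrd1 counts was 1.44, 0.747 and 1.84 in control and 1.51, 2.17 and 2.10 in doxorubicin hearts, and these overlapped. Abra per 100 Ankrd23 counts was nearly constant in doxorubicin hearts, at 63.7, 72.6 and 73.3, and ranged from 52.5 to 139 in control hearts.

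The summed macrophage markers also differed between the groups. All 10 were measured, and their sum was 268 to 282 CPM in control and 322, 528 and 360 CPM in doxorubicin hearts 1, 2 and 3. Singly, all doxorubicin hearts lay above all control hearts only for Lyz2 and Mrc1. Lyz2 was at 116, 87.5 and 88.3 CPM in control and 126, 225 and 164 CPM in doxorubicin hearts. The groups overlapped for each of the other markers, such as Csf1r and Cd68. Heart 2 was highest in the summed markers and lowest of the doxorubicin hearts for Ankrd1, Ankrd23 and Abra. This was not particular to macrophage markers. Fibroblast markers summed to 2249, 3545 and 2076 CPM in doxorubicin hearts 1, 2 and 3. The endothelial, smooth muscle and T cell sums were also highest of the doxorubicin hearts in heart 2. The cardiomyocyte, skeletal muscle, atrial and erythroid sums were not. The atrial markers other than Nppa summed to 256, 12.4 and 26.1 CPM in control and 34.3, 9.98 and 15.9 CPM in doxorubicin hearts, with Bmp10 at 0 in 4 libraries. The part of the macrophage, atrial and other markers in the members' values was not tested either.

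The symbols whose profile over the 6 libraries was closest to each member were found by the mean absolute difference in log2 CPM after each symbol's own mean was removed. The 8607 fitted symbols with a mean of at least 5 CPM were compared. For Ankrd1 the closest was Nppb, which encodes B-type natriuretic peptide, with a difference of 0.06 against a median of 0.52 over all symbols. Nppb stood at 162, 201 and 154 CPM in control hearts 1, 2 and 3 and at 503, 196 and 271 CPM in doxorubicin hearts 1, 2 and 3. Like Ankrd1, it was high in doxorubicin heart 1 and within the control range in heart 2. Next came Fam214b (0.06) and Insig2 (0.13), which encodes a sterol-sensing protein of the endoplasmic reticulum.

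Ankrd23 and Abra had other neighbours than Ankrd1. The closest to Ankrd23 were Mybpc2, the fast skeletal myosin-binding protein C gene (0.17), Mdk, which encodes the growth factor midkine (0.19), and Vash2, a vasohibin gene (0.25), against a median of 0.77. Mybpc2 stood at 4.58, 4.00 and 3.98 CPM in control and 20.9, 8.11 and 11.2 CPM in doxorubicin hearts, on as few as 9 counts. The closest to Abra were Slc7a5, an amino acid transporter gene (0.15), and Gfpt2, a hexosamine pathway enzyme gene (0.16), against a median of 0.68. Abra was number 5 among the symbols nearest to Ankrd23, and Ankrd1 was number 40. Seen from Abra, Ankrd23 was number 28 and Ankrd1 number 138. Seen from Ankrd1, Ankrd23 and Abra were at 1195 and 1200, each at a difference of 0.39. The difference of a pair is the same from either side, and only the rank changes. Ankrd23 and Abra were chosen as higher in every doxorubicin heart, so their nearness to each other is in part set by that choice. These likenesses rest on 6 libraries in 2 groups and are descriptions.

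**Figure D3:**
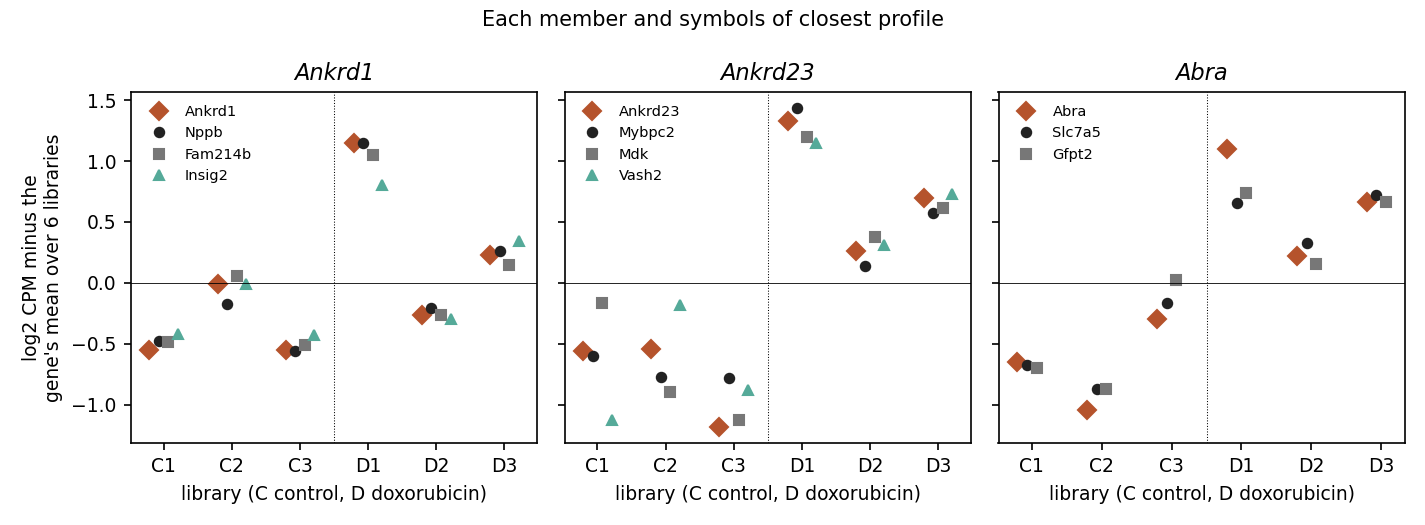
Log2 CPM of each member and of symbols of closest profile (3 for Ankrd1 and Ankrd23, 2 for Abra), minus each symbol's own mean over the 6 libraries (y axis), in control (C1 to C3) and doxorubicin (D1 to D3) libraries. Nppb lies almost on Ankrd1, at a mean distance of 0.06, and both are below their own means in D2. Ankrd23 and Abra, chosen as higher in every doxorubicin heart, are above their own means in D1, D2 and D3.

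Lists of related genes were then read against the whole table, where 8.10% of symbols had an unadjusted p under 0.05 in edgeR's test, 13.4% had groups that did not overlap in either direction, and the median log2 fold change was 0.02. With adjustment over all symbols edgeR called 0 genes in each of the 8 lists, and voom also called 0. DESeq2 called Acta1 and Tpm2 among the SRF targets, Acta1 and Enah among the load-associated genes, and 0 in the other 6 lists.

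The titin spring and Z-disc list had 15 of its 20 genes fitted, and 4 of them (26.7%) had an unadjusted p under 0.05, 3 higher and 1 lower in doxorubicin. Its median log2 fold change was 0.11, and the groups did not overlap for 5 genes. Flnc, the muscle filamin gene, was at 398, 393 and 395 CPM in control and 787, 490 and 541 CPM in doxorubicin hearts 1, 2 and 3, a log2 fold change of 0.62 (SE 0.20, edgeR adjusted p 0.383). Doxorubicin heart 1 was highest, as for the members, and all control hearts were nearly equal. Trim55, which encodes a titin-binding ubiquitin ligase of the M-band, had a log2 fold change of 0.47 (SE 0.18). Tcap, the titin cap gene, had 0.55 (SE 0.24) with overlapping groups, and Nebl, the nebulette gene, 1.00 (SE 0.66).

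Direct partners of the ankyrin repeat proteins could be followed only in part. Mypn, the myopalladin gene, stood at 106, 135 and 148 CPM in control and 146, 160 and 169 CPM in doxorubicin hearts, at a log2 fold change of 0.29 (SE 0.18), and the groups overlapped. Capn3, the calpain 3 gene, had 1 to 8 counts per library, and Ttn was not analysed here. Csrp3, which encodes the Z-disc muscle LIM protein, was at 0.46 (SE 0.22) on the log2 scale, and its doxorubicin hearts, at 2342, 1466 and 1463 CPM, lay just above the highest control at 1432 CPM. Fhl2, a LIM protein gene, was lower in each doxorubicin heart, with a log2 fold change of -0.44 (SE 0.20). Smyd2, a methyltransferase gene, had groups that did not overlap but a log2 fold change of only 0.11. Fhl2 and Smyd2 were named after their values were seen.

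Genes of the actin and MRTF-SRF pathway, in which Abra acts, lay close to the whole table. Of 24 genes 18 were fitted, 2 (11.1%) had an unadjusted p under 0.05, and the median log2 fold change was 0.03. Srf itself was at 186 ± 57.4 CPM in the control group and 187 ± 25.8 CPM in the doxorubicin group (SD, n = 3), for a log2 fold change of 0.01 (SE 0.22). Rhoa, the GTPase that Abra signals through, had a log2 fold change of 0.01 (SE 0.18). Rnd3, an atypical small GTPase gene, had 0.75 (SE 0.29), with doxorubicin hearts at 38.2, 19.3 and 22.4 CPM above control hearts at 14.5, 14.7 and 17.9 CPM.

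Other genes of that pathway were lower or overlapped. Rhoc was at -0.49 (SE 0.21) and Rhob at -0.33 (SE 0.18) on the log2 scale, each with all doxorubicin hearts below all control hearts. Arhgef1, a guanine nucleotide exchange factor gene named after its values were seen, did the same at -0.27 (SE 0.17), and the related Arhgef12 had 0.47 (SE 0.31) with overlap. Ablim3, which encodes an Abra-binding protein, had -0.20 (SE 0.22). The genes of the coactivators, Mrtfa and Mrtfb, were not analysed here.

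Textbook SRF targets, the genes downstream of Abra, lay on both sides of 0. Of 25 genes 20 were fitted, 8 had a positive log2 fold change, and the median was -0.10, or 0.00 with cardiomyocyte marker scaling, which also moved the median of all symbols up to 0.14. An unadjusted p under 0.05 was found for 4 genes (20.0%), 3 higher and 1 lower. Acta1, the skeletal alpha-actin gene, was at 1026, 930 and 600 CPM in control and 2647, 1137 and 1490 CPM in doxorubicin hearts 1, 2 and 3, a log2 fold change of 1.05 (SE 0.29, edgeR adjusted p 0.261). Its doxorubicin hearts had the same order as the members. Tpm2, a tropomyosin gene, had 2.02 (SE 0.43, edgeR adjusted p 0.125) on 4 to 16 counts per control and 32 to 42 counts per doxorubicin library.

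The smooth muscle and immediate early targets gave other values. The immediate early genes, outside the naming rule here, had overlapping groups. Their log2 fold changes were 0.00 for Egr1, -0.77 for Fos, 0.07 for Junb and -0.37 for Ier2. Groups also overlapped for the smooth muscle genes Acta2 (-0.44), Tagln (-0.45) and Cnn1 (-0.76), likewise outside that rule. Myl9, a smooth muscle light chain gene, had -0.48 (SE 0.18), with all doxorubicin hearts below all control hearts. Actg2, a smooth muscle actin gene, had -1.15 (SE 0.54) on 3 to 33 counts per library. A further pair had groups that did not overlap and were named after their values were seen: Dstn, the destrin gene, at 0.42 (SE 0.19), and Itga5, an integrin gene, at 0.31 (SE 0.18). Tpm1, Flna and Myh9 were listed at 0 in all 6 libraries, so this table cannot speak of them. Actin and tropomyosin genes have close relatives, and how shared reads were counted is not given in the sources used here.

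The Hippo list, whose effectors YAP and TEAD are known to act on Ankrd1, had 19 of 22 genes fitted. An unadjusted p under 0.05 was found for 2 of them (10.5%), and the median log2 fold change was 0.12. That median was 0.03 without doxorubicin heart 3, 0.08 without control heart 1, 0.18 without control heart 3 or doxorubicin heart 2, and 0.21 without control heart 2. Ccn2, which encodes connective tissue growth factor, stood at 112, 72.0 and 145 CPM in control and 618, 243 and 209 CPM in doxorubicin hearts 1, 2 and 3, a log2 fold change of 1.70 (SE 0.41, edgeR adjusted p 0.207). All its doxorubicin values were above control, with heart 1 far highest. Its relative Ccn1 had 0.56 (SE 0.40) with overlap, and Amotl2, another YAP target, was lower at -0.46 (SE 0.19). The kinase gene Stk4 had 0.43 (SE 0.26), and Tead1 had 0.52 (SE 0.52).

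The load-associated genes had the highest median of the 8 lists. All 10 fitted genes of 13 had a log2 fold change at or above 0.00, with a median of 0.99, which was 0.64 without doxorubicin heart 1, and 5 (50%) had an unadjusted p under 0.05. This list was drawn up with earlier results of these libraries known, so its direction is not independent evidence. Enah, which encodes an actin regulator of the intercalated disc, was at 40.9, 59.5 and 48.6 CPM in control and 150, 77.7 and 103 CPM in doxorubicin hearts 1, 2 and 3. Its log2 fold change was 1.15 (SE 0.25, edgeR adjusted p 0.125), and it had the members' order within the doxorubicin group.

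Xirp2, a gene of an intercalated disc actin-binding protein named after its values were seen, had 0.91 (SE 0.30), with doxorubicin hearts at 719, 417 and 471 CPM above control hearts at 148, 368 and 341 CPM. Myh7, the beta myosin heavy chain gene, was at 1.94 (SE 0.36) on the log2 scale, and its doxorubicin hearts stood in the same order as the members. Atf3, a stress-induced transcription factor gene, reached 150 CPM in doxorubicin heart 1 but 15.6 and 12.4 CPM in hearts 2 and 3, against 7.26 to 8.52 CPM in control. Nppa, the atrial natriuretic peptide gene, was at 2.18 (SE 1.03) on that scale and Nppb, also outside the naming rule here, 0.91 (SE 0.29), both with overlapping groups.

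Mechanosensitive channels and cardiac transcription factors held 2 genes each with a low p. Of 7 fitted channel genes 2 (28.6%) had an unadjusted p under 0.05: Trpm7, a channel with a kinase domain, at 0.52 (SE 0.21), and Kcnk2, a stretch-activated potassium channel gene, at -0.58 (SE 0.27). Trpm4 had -0.33 (SE 0.26), and the median was 0.02. Of 9 fitted transcription factor genes 2 (22.2%) had an unadjusted p under 0.05, and the median was -0.06, or 0.08 with cardiomyocyte marker scaling and 0.04 with library size only. Gata6 was at 116, 126 and 127 CPM in control and 163, 151 and 206 CPM in doxorubicin hearts, with a log2 fold change of 0.49 (SE 0.18). Tbx20 had 1.56 (SE 0.52) on 13 to 123 counts, with doxorubicin heart 2 inside the control range. Nkx2-5 had -0.42 (SE 0.24) and Mef2a 0.59 (SE 0.36), both with overlap.

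The other ankyrin repeat domain genes, which share the repeat fold but not the muscle role, stayed near 0. Of 32 such symbols 19 were fitted, and their log2 fold changes ran from -0.33 for Ankrd9 to 0.36 for Ankrd13c and Ankrd42, with a median of -0.03, or 0.09 with cardiomyocyte marker scaling and 0.05 with library size only. None had an unadjusted p under 0.05 in edgeR's test and 0 had groups that did not overlap. Ankrd40 had -0.27 (SE 0.18). Ankrd39, the neighbour of Ankrd23 on GRCr8, had 6 to 15 counts per library and a log2 fold change of -0.23. The spans of the 4 members overlap no other gene of that annotation.

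**Figure D4:**
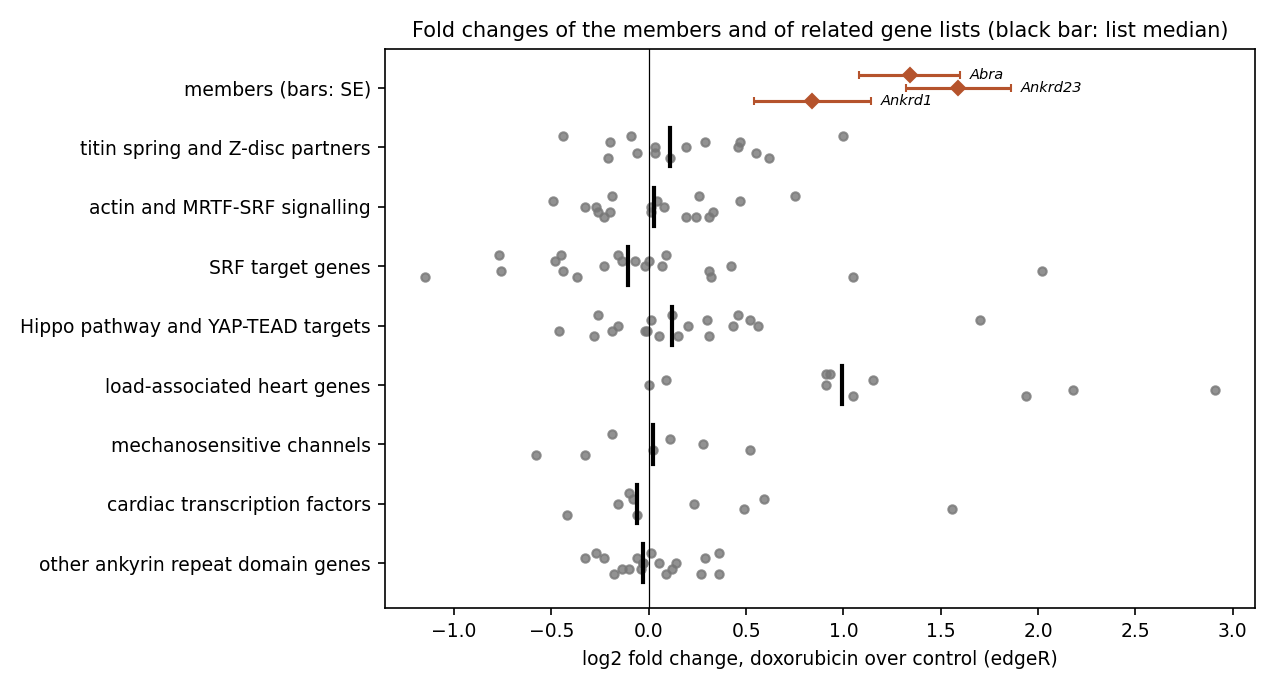
Log2 fold change of doxorubicin over control from edgeR (x axis) for the 3 fitted members (diamonds, bars are SE) and for the fitted genes of each list (dots, vertical bar is the median). The members lie from 0.84 to 1.59, the load-associated genes have a median of 0.99, and, with the TMM scaling used here, the other list medians lie from -0.10 to 0.12.

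**Figure D5:**
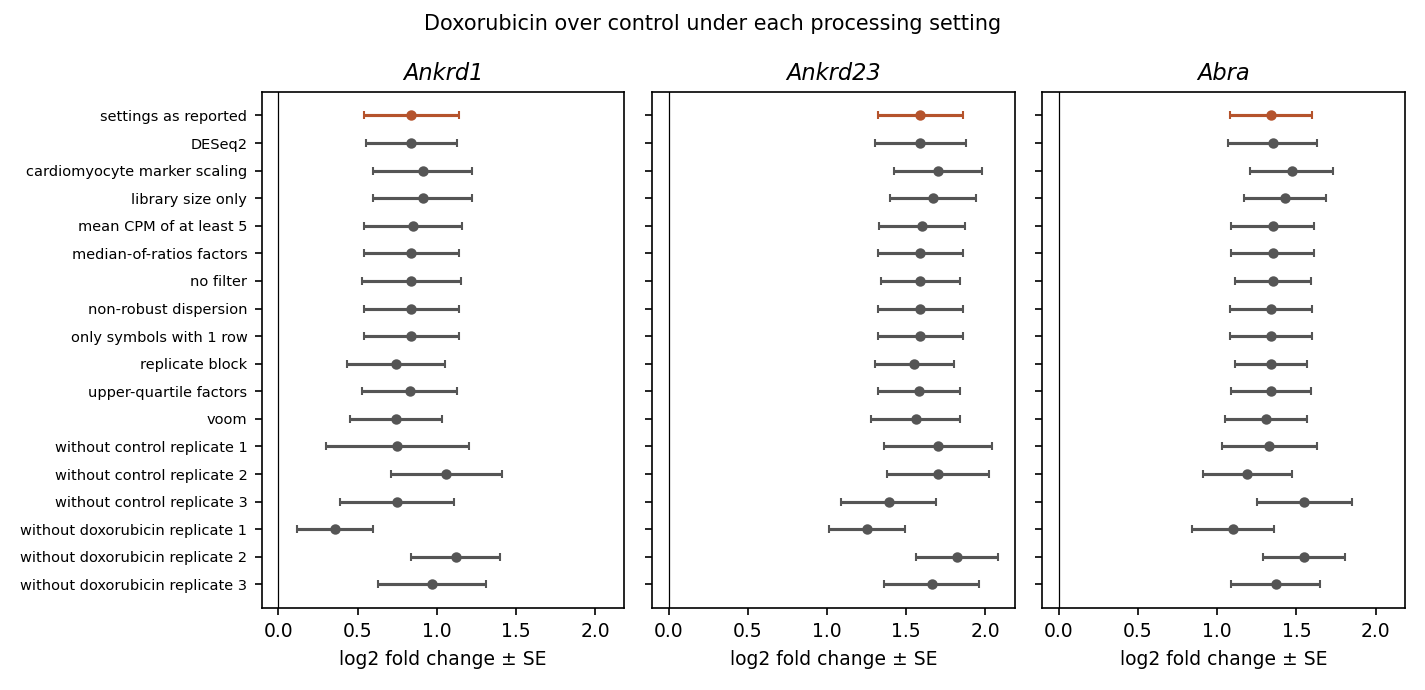
Log2 fold change (x axis, with SE) of Ankrd1, Ankrd23 and Abra with the settings as reported and under 17 alternatives (y axis). Ankrd23 stays between 1.25 and 1.82 and Abra between 1.10 and 1.55, while Ankrd1 ranges from 0.36 without doxorubicin replicate 1 to 1.12 without doxorubicin replicate 2.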

How the data were processed

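Polyadenylated RNA of 6 rat hearts was sequenced, 1 library per animal. The authors deposited raw read counts per gene row, not normalized, 1 column per library. Per the submitters' processing notes, FastQC, Trimmomatic, STAR and HTSeq and the build mRatBN7.2 were used; versions, counting mode, strand setting and annotation are not given in the sources used here, so reads shared between paralogs may be split or lost.

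Counts of the 18473 rows were summed per symbol. The test was edgeR 4.0.16 (R 4.3.3), quasi-likelihood, with TMM factors, robust dispersion and filterByExpr (minimum count 10, minimum total 15), which kept 9205 symbols. P-values were adjusted by Benjamini-Hochberg over all of these, with a threshold of 0.05. An SE is the absolute log2 fold change over the square root of F. Log2 CPM used a prior count of 2. Depth per library limits low levels: 3 counts were the floor, and intervals are Wilson at 95%, for counting error only. DESeq2 1.42.0 and limma 3.58.1 (voom) were alternatives, and the scripts were tested on simulated data. The labels call the libraries biological replicates and describe no pairing.

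Members and gene lists were chosen with earlier results of these data known. Genes were named if they were members or known partners, were among the 3 smallest p-values or 3 largest absolute log2 fold changes of a list, or were among the 3 symbols closest to a member; the results for 2 such genes are not reported here.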

Additional observations from a re-analysis of the deposited data

How the results depend on the processing

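All 17 alternatives were planned and run. Log2 fold changes of the 3 fitted members kept their sign in each. With all libraries they were 0.74 to 0.91 for Ankrd1, 1.55 to 1.70 for Ankrd23 and 1.31 to 1.47 for Abra. When 1 library was left out they were 0.36 to 1.12, 1.25 to 1.82 and 1.10 to 1.55. Each moved by less than the larger of the 2 group SDs in log2 CPM. For Ankrd1 that was the doxorubicin SD of 0.71, which includes heart 1. Its fall from 0.84 to 0.36 without heart 1 was larger than the control SD of 0.31. Ankrd2 gave no value. The contrast had chosen Ankrd23 and Abra, so their adjusted p-values describe the settings and do not test these genes. With adjusted p of 0.0553 and 0.0833 as reported in edgeR, Ankrd23 and Abra were under 0.05 with DESeq2 (5.51e-05 and 0.00128), no filter (0.000689 and 0.00135), the replicate block (0.0262 and 0.037) and without doxorubicin library 2 (0.00465 and 0.014), and not in the other 13 alternatives, where they ranged up to 0.373. Against 5 symbols past the adjusted threshold, DESeq2 gave 74, no filter 61, the replicate block 13, and a mean CPM of at least 5, non-robust dispersion and only symbols with 1 row gave 1 each. Library size only, cardiomyocyte marker scaling and voom gave 0, with 713, 627 and 740 symbols at an unadjusted p under 0.05. Leaving out 1 library gave 0 to 35, the 35 without doxorubicin library 2.

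The SRF targets had 2 calls with DESeq2 and 1 with no filter. The load-associated genes had 2 calls with DESeq2, 1 with no filter, 1 with the replicate block, and 0 to 2 with 1 library left out. Transcription factors had 0 to 1 with 1 library left out. Cardiomyocyte marker scaling and library size only moved the median of all symbols from 0.02 to 0.14 and 0.10. With marker scaling the list medians became 0.17 (actin and MRTF-SRF), 0.15 (channels), 0.23 (titin and Z-disc), 0.23 (Hippo) and 0.09 (other ankyrin repeat genes), and with library size only the actin and MRTF-SRF median became 0.13 and the Hippo median 0.20. The other ankyrin repeat median was also 0.09 with DESeq2 and with no filter. With 1 library left out, it ranged from -0.03 to 0.15, the actin and MRTF-SRF median from -0.07 to 0.10, the channel median from -0.16 to 0.02, the Hippo median from 0.03 to 0.21 and the load-associated median from 0.64 to 1.28. Several medians near 0 thus changed sign. The cause of these changes was not tested. Same-numbered libraries did not deviate together (correlations 0.0211, -0.185 and -0.0559), and beyond the load-associated genes the block changed no list's call.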
